A study of Mus musculus with 6 samples.

Results

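The genes described here encode the proteins of the cytosolic ribosome, followed in sensory neurons of the mouse dorsal root ganglion after injury to their peripheral axon. Members were taken by name: a symbol that begins with Rpl or Rps plus a digit, or Rplp0, Rplp1, Rplp2 or Rpsa, with the S6 kinases, Rps19bp1 and every name that contains "-ps" left out. The rule found 64 genes of 17022 in the table, 39 of the large and 25 of the small subunit, made up of 289 of the 60744 isoforms. Neurons had been cut by laser from frozen lumbar ganglia (L3, L4 and L5) of male C57Bl/6 mice of 4 to 6 weeks, on the operated side, 7 days after surgery. The crush group (3 libraries) had the sciatic nerve crushed for 10 seconds. The sham group (3 libraries, called controls in the labels) had the nerve exposed for 10 seconds. Nothing in the labels says how many mice went into a library or whether the libraries came from separate mice, so p-values here measure only the spread between these libraries.

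A cytosolic ribosome has a small subunit, which reads the mRNA, and a large subunit, which joins the amino acids, each built from ribosomal RNA and many proteins present in single copies. Ribosomal protein mRNAs are short and abundant, and many start with a terminal oligopyrimidine tract, a run of C and T at the first transcribed bases through which mTOR signalling controls their translation. In sensory neurons these mRNAs are also found in axons, where local protein synthesis takes part in the response to a nerve crush. The values below are amounts of mRNA in the microdissected material and say nothing of translation.

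Runs of pyrimidines were looked for in the reference sequence around the annotated starts. Such a run need not be a terminal tract. RefSeq promoters of mouse build GRCm38.p6 matched 46 of the 64 members. A run of at least 8 pyrimidines that opens with C, on the sense strand and within 50 bases on either side of the annotated start, was found in 38 of those 46 genes (82.6%). The same run was found in 32.0% of the 27025 genes in that table. Those shown here are the ones the results turn on: the 3 most abundant members with a run, then Rpl14 and Rpl15. Capitals mark the longest such run of that window, counted from its first C, so a T directly before it, as in Rps9, is not counted.
Rpl41, chr10:128549119-128549148, minus strand: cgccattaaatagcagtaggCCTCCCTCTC
Rps15, chr10:80292448-80292477, plus strand: agcccgtaCTTCCTTTTCCgagtaaccgcc
Rps9, chr7:3704028-3704057, plus strand: cgccttgtCTCTCTTTgtctcgggcctgag
Rpl14, chr9:120571501-120571530, plus strand: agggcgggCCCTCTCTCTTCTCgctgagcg
Rpl15, chr14:18270969-18270998, minus strand: ggagaaagCCTTCTTCCTTTCCTCTggcgg
The run began 5 bases before the annotated start in Rps9, 8 before it in Rpl14 and 4 before it in Rpl15, and lay 25 and 40 bases after it in Rps15 and Rpl41. Its length was 17 bases in Rpl15, 14 in Rpl14, 11 in Rps15 and 8 in Rps9. In Rpl41 it was at least 10, as the run reached the end of the sequence searched. A match of letters is a description and does not mark the base where transcription starts in these neurons.

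Expression was deposited as FPKM, fragments scaled by transcript length and library size, for each isoform in each library, and was summed here over the isoforms of a gene. The files give no counts, so the depth of each library is unknown. The summed FPKM of all genes was 322293, 316263 and 338365 in crush 1 to 3 and 320947, 364606 and 321152 in sham 1 to 3. The injury markers fitted the labels. Atf3, a transcription factor induced by axon injury, was at 166, 153 and 196 FPKM in the crush libraries and 50.9, 64.6 and 36.1 FPKM in the sham libraries. Sprr1a, a growth-associated protein, was at 445, 454 and 640.4 FPKM in the crush libraries and 88.9, 110.3 and 72.3 FPKM in the sham libraries. Neuronal markers were high throughout (14 of 16 listed genes in the table, summed FPKM 8482 to 9825 in crush and 8463 to 10577 in sham). Markers of Schwann and satellite glia were also present (15 of 16 listed genes, 3162 to 3463 FPKM in crush and 3064 to 4227 FPKM in sham), as were fibroblast and vascular markers (231 to 237 FPKM in crush and 167 to 204 FPKM in sham). The summed macrophage markers (15 of 16 listed genes, none at 0) were at 225 to 250.2 FPKM in crush and 111 to 139 FPKM in sham. In such material fewer cells of a type and less RNA per cell cannot be told apart.

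A single library stood apart in the ribosomal protein genes. Sham 2 held the highest of the 6 values in 53 of the 61 members tested (86.9%), against 35.1% of the 12289 genes tested. It lay above both other sham libraries in 58 members (95.1%, against 45.7% of all genes), with a median difference from their mean of 0.57 on the log2 scale and a range of -0.21 to 2.07 (0.01 over all genes). In ratio, sham 2 was at a median of 1.54 times the mean of sham 1 and sham 3. Crush 3 was the highest crush library in 56 members (91.8%, against 43.5% of all genes), by a median of 0.23 on the log2 scale (0.02 over all genes). Changes between the groups are therefore also given without sham 2.

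Members differed widely in level. The mean over the 6 libraries ran between 0.265 FPKM for Rpl36a and 397 FPKM for Rpl41, with a median of 12.0 FPKM. There were 9 members above 100 FPKM and 29 under 10 FPKM. The 10 most abundant members, among them Rpl41, Rpl8, Rps3, Rplp1, Rps15, Rps9, Rpl4 and Rps21, together held 63.3, 64.2 and 63.1% of the summed FPKM in crush 1 to 3 and 62.2, 64.2 and 62.7% in sham 1 to 3. The level went with the length of the leading isoform: 31 members whose leading isoform was under 1000 nt had a median of 48.3 FPKM, 17 of 1000 to 2000 nt had 7.02 FPKM and 16 above 2000 nt had 6.20 FPKM. Of the 289 member isoforms, 256 were assembled by the authors and 33 carried a reference identifier. In 16 members the shortest isoform with values exceeded 1500 nt, and 149 transcripts of 53 members had no values. A low value therefore need not be the level of the whole gene.

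**Figure D1:**
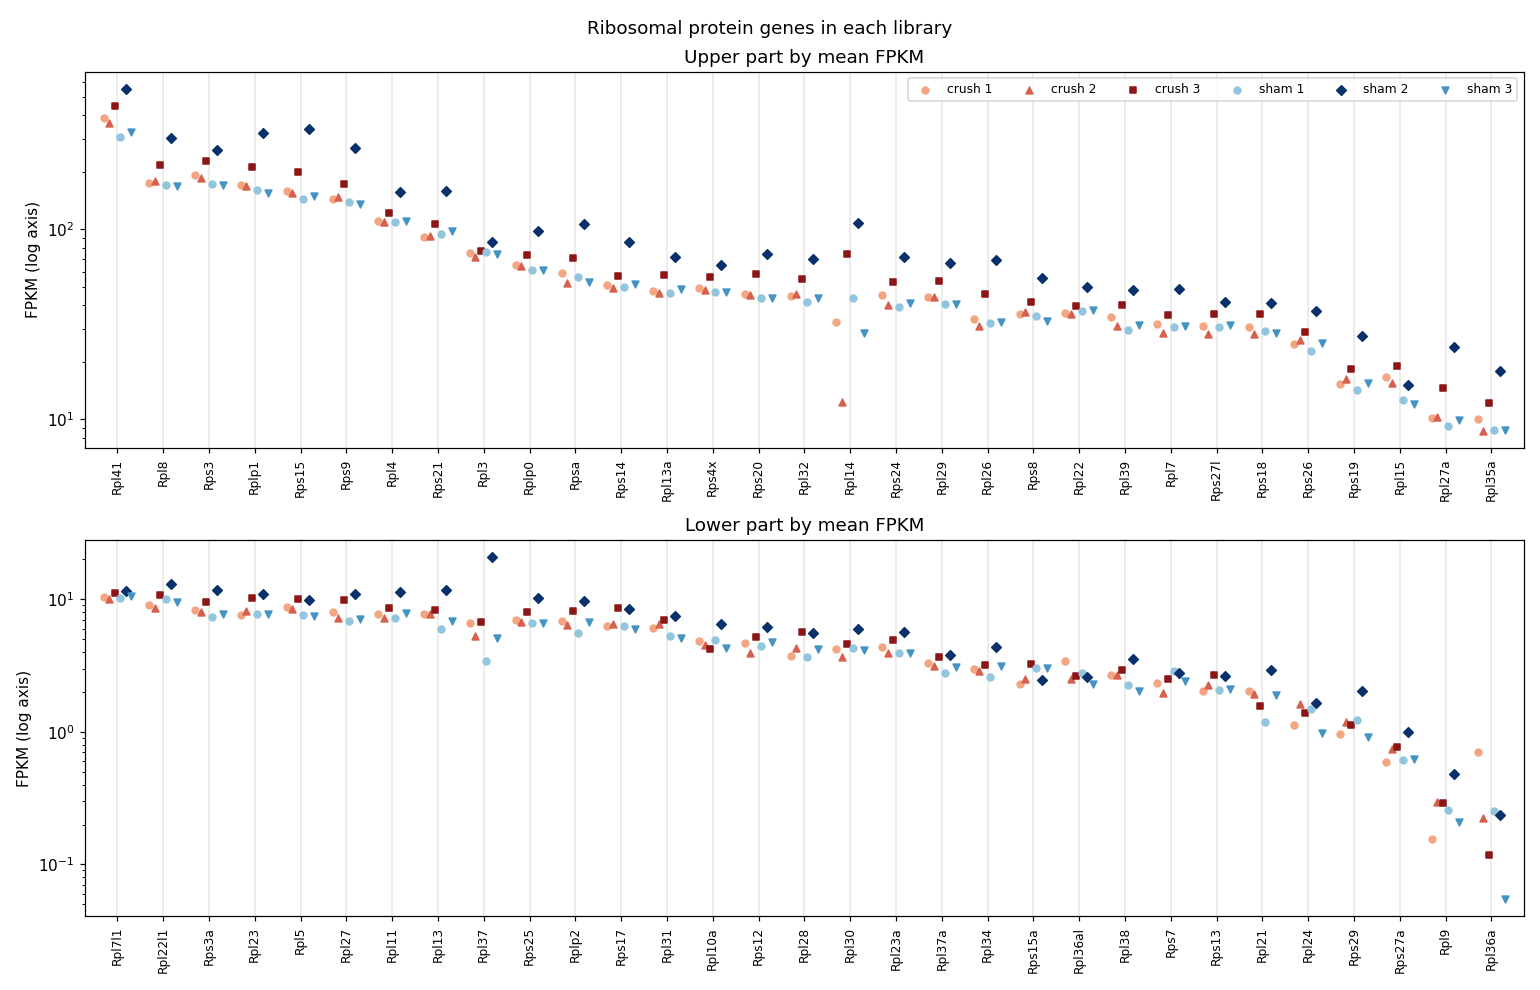
FPKM of 62 ribosomal protein genes in each library (log axis), ordered by their mean, with crush libraries left of sham libraries within each gene. The dark diamonds of sham 2 sit above the other 5 libraries in 51 of the 59 tested genes shown, and crush 3 is the highest crush library in 54.

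The summed FPKM of the 64 members was 2769, 2671 and 3306 in crush 1 to 3 and 2572, 4435 and 2592 in sham 1 to 3. The mean was 2916 ± 342 in crush and 3200 ± 1070 in sham (SD, n = 3 each), or 2582 over sham 1 and sham 3. As a share of all FPKM the members held 0.859, 0.845 and 0.977% in crush and 0.801, 1.22 and 0.807% in sham. All 3 crush libraries lay above sham 1 and sham 3 and below sham 2 in both measures.

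The summed FPKM of the 39 large subunit members was close to that of the 25 small subunit members. The large subunit members summed to 1439, 1376 and 1728 FPKM in crush and 1322, 2264 and 1325 FPKM in sham, and the small subunit members to 1329, 1295 and 1578 FPKM in crush and 1250.0, 2170.3 and 1267 FPKM in sham. Their ratio was 1.083, 1.063 and 1.095 in crush and 1.057, 1.043 and 1.045 in sham, so the groups did not overlap, with crush 2 next above sham 1. Both that order and the near-even sums rested on Rpl41. Without it the ratio was 0.792, 0.781 and 0.811 in crush and 0.810, 0.790 and 0.789 in sham, and the groups overlapped.

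**Figure D2:**
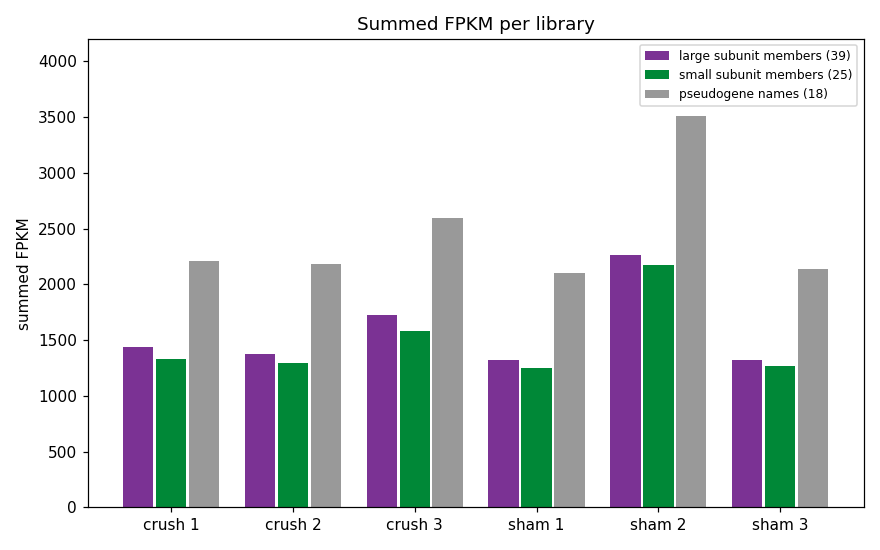
Summed FPKM per library of the large subunit members, the small subunit members and 18 ribosomal protein pseudogene names left out by the rule (bars start at 0; crush libraries left, sham libraries right). All 3 sums are highest in sham 2, and the members' share of all FPKM there is 1.22%.

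Crush and sham were compared with limma on log2(FPKM + 1) over the 12289 genes with a mean of at least 1 FPKM, with p-values adjusted over all of them. No ribosomal protein gene passed: 0 of 61 tested, where 3.78% of all genes passed (2.38% higher and 1.39% lower). At an unadjusted p under 0.05 there was 1 member, Rpl15, against 17.6% of all genes. The log2 change was negative in 47 of 61 members (54.1% of all genes), with a median of -0.08 (-0.02 over all genes) and a range of -0.69 to 0.34, and 59 of the 61 lay between -0.25 and 0.25. The standard error of a member's change had a median of 0.17, against 0.10 over all genes. It reflects the spread between libraries, and without sham 2 its median over the members was 0.094. Rpl36a, Rpl9 and Rps27a, under 1 FPKM, were not tested.

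Leaving out sham 2 turned the direction of most members. The log2 change was then positive in 52 of 61 (85.2%, against 46.5% of all genes), with a median of 0.14 (-0.01 over all genes), and 38 members changed sign. All 3 crush libraries lay above both remaining sham libraries in 24 members (39.3%, against 20.9% of all genes) and below them in 0 (24.7% of all genes). Of the members, 1 passed, Rpl15, where 9.55% of all genes passed (4.94% higher and 4.61% lower). At an unadjusted p under 0.05 there were 8 members (13.1%, against 25.6% of all genes). With weights for the libraries estimated from the data in place of equal ones, 1 member passed, again Rpl15, where 11.6% of all genes passed (5.97% higher and 5.66% lower). With both sham 2 and crush 3 left out, Rpl15 and Rpl41 passed, where 13.1% of all genes passed (6.23% higher and 6.88% lower). The subunits had like values: the median was -0.06 over 37 large and -0.08 over 24 small subunit members with all libraries, and 0.16 and 0.13 without sham 2. Sham 2 was singled out with its values known, so these values describe the dependence on 1 library and do not replace the comparison of all 6.

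**Figure D3:**
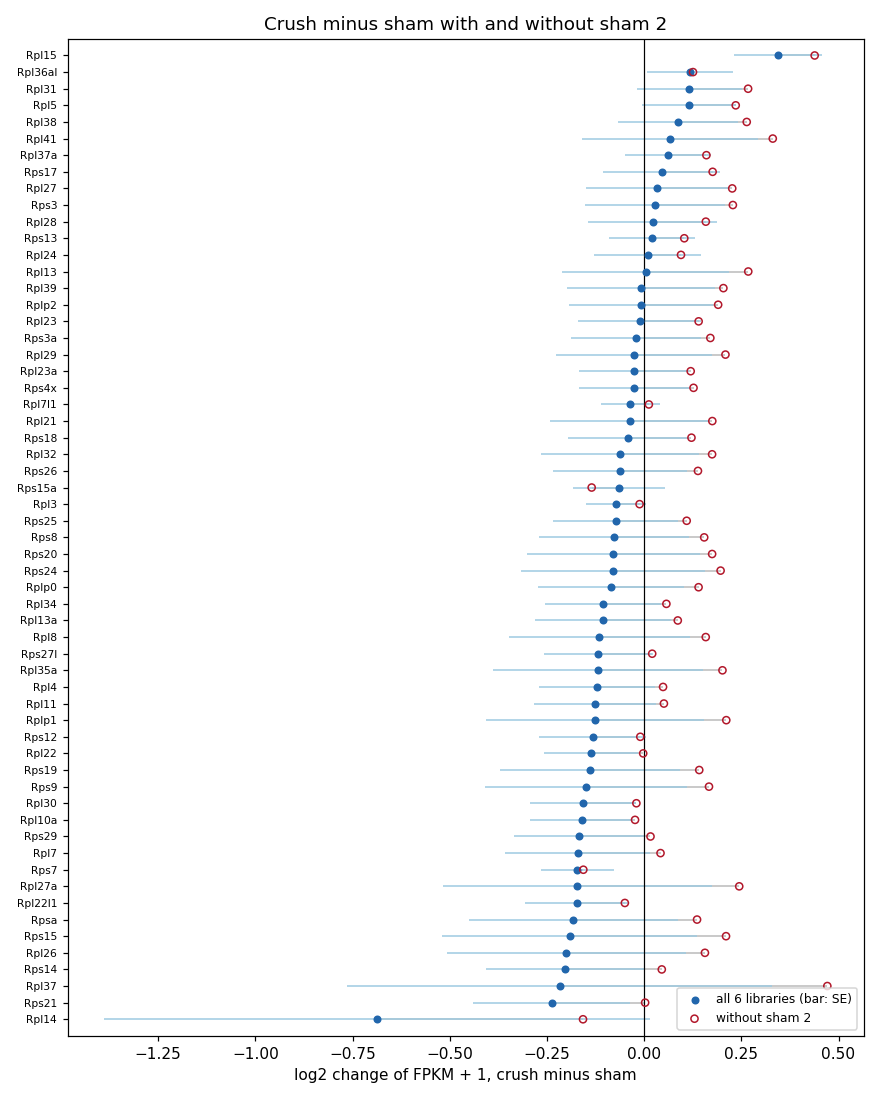
Log2 change of FPKM + 1, crush minus sham, of 59 ribosomal protein genes tested, ordered by the change over all 6 libraries (filled points, bars are the standard error). Open points leave out sham 2. They lie right of 0 in 50 of these genes, against 14 for the filled points.

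Rpl15, a large subunit protein, was the only member of the 61 whose groups did not overlap (26.3% of all genes did not). It was at 16.6, 15.4 and 19.1 FPKM in the crush libraries and 12.6, 15.1 and 12.0 FPKM in the sham libraries. The lowest crush library exceeded the highest sham library, sham 2, by a small step. The log2 change was 0.34 (SE 0.11, adjusted p = 0.175 by limma), and 0.44 without sham 2 (SE 0.09, adjusted p = 0.0292). Over the alternatives in which it was tested, all but reference isoforms only, its adjusted p ran between 0.0153 (without both sham 2 and crush 3) and 0.428 (without crush 3), and the change was positive. Nearly all of the signal (98.6%) was 1 assembled isoform of 3747 nt, at chr14:19098748-19103472 of mm9 on the minus strand. In the authors' models 99.95% of the exonic bases of Rpl15 also lie in exons of Nkiras1, an inhibitor of NF-kappa-B signalling on the opposite strand. Nkiras1, looked up after this overlap was seen, fell: it was at 7.04, 6.31 and 6.61 FPKM in crush and 8.90, 8.67 and 8.66 FPKM in sham (log2 change -0.35, SE 0.07, adjusted p = 0.0399 by limma). That call held without sham 2 (adjusted p = 0.021) and was lost without any 1 of the other libraries (adjusted p = 0.121 to 0.171). It was also lost without the filter on low values (0.0511), with upper-quartile scaling (0.0611), with reference isoforms only (0.124) and with the replicate number as a block (0.166). Rpl15 and Nkiras1 together held 23.7, 21.7 and 25.7 FPKM in crush and 21.5, 23.8 and 20.7 FPKM in sham, and those sums overlapped. The library preparation is not stated to keep strand, so reads of these genes cannot be told apart by strand.

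Rpl41, the smallest ribosomal protein, had the highest level. It was at 387, 365 and 448 FPKM in crush and 309, 550.0 and 325 FPKM in sham. Sham 2 was above, and sham 1 and sham 3 below, every crush library. The log2 change was 0.07 (SE 0.23, adjusted p = 0.919) and 0.33 without sham 2 (SE 0.10, adjusted p = 0.0794). Its exons share 69.4% of their bases with those of Zc3h10, on the same strand, at 5.45 to 5.72 FPKM in crush and 5.36 to 6.74 FPKM in sham.

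Among the small subunit proteins of high level, Rps3, at the mRNA entry and also a DNA repair enzyme, was at 195, 187 and 228 FPKM in crush and 173, 263 and 172 FPKM in sham (log2 change 0.03, SE 0.18). Rps15 was at 159, 155 and 199.9 FPKM in crush and 144, 340.0 and 149 FPKM in sham (-0.19, SE 0.33). In both genes, sham 2 was highest and the crush libraries were above sham 1 and sham 3. Rps9 had the same order, with 145, 148 and 174 FPKM in crush and 139.7, 268 and 137 FPKM in sham (-0.15, SE 0.26). Rps21 did not: the values were 91.1, 92.4 and 107 FPKM in crush and 94.9, 159.6 and 98.1 FPKM in sham (-0.24, SE 0.20), and crush 1 and crush 2 lay below every sham library. Without sham 2 the changes were 0.23 in Rps3, 0.21 in Rps15, 0.17 in Rps9 and 0.0026 in Rps21. The adjusted p of these 4 genes over all libraries by limma lay between 0.619 and 0.962.

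Rpsa, also known as the laminin receptor, was at 59.2, 52.3 and 70.6 FPKM in crush and 56.4, 107 and 53.1 FPKM in sham (log2 change -0.18, SE 0.27, adjusted p = 0.794 by limma, and 0.14 without sham 2). It is among the 4 members with an isoform whose status in the deposited table was not OK, together with Rpl14, Rps14 and Rps20. In Rpsa the isoform marked LOWDATA in every library held 47.7% of its level. That isoform was at 26.3, 20.9 and 34.5 FPKM in crush and 26.0, 60.3 and 22.1 FPKM in sham, so the value of the gene is uncertain. Rps7 gave the smallest adjusted p among members with a lower mean in crush, at 0.413. It was at 2.36, 1.97 and 2.50 FPKM in crush and 2.87, 2.76 and 2.43 FPKM in sham, and its log2 change was -0.17 with all libraries and -0.16 without sham 2. It is among the few members in which sham 2 was not the highest library.

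The ribosomal stalk, which recruits the GTPases of translation, is made of Rplp0, Rplp1 and Rplp2. Rplp1 was at 172, 169 and 214 FPKM in crush and 162, 322 and 155 FPKM in sham (log2 change -0.13, SE 0.28). Rplp0, the scaffold of the stalk, was at 64.8, 64.5 and 73.4 FPKM in crush and 60.9, 98.3 and 61.4 FPKM in sham (-0.09, SE 0.19). Rplp2 was at 6.91, 6.44 and 8.16 FPKM in crush and 5.54, 9.79 and 6.77 FPKM in sham (-0.01, SE 0.19). In each of the 3 genes sham 2 was the highest library, and without it the changes were 0.21, 0.14 and 0.19. Rplp1 and Rplp2 form dimers in the stalk, but their FPKM differed more than 10-fold. Exons of Rplp2 share 90.7% of their bases with Lrdd, on the opposite strand.

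Other large subunit proteins of high level were Rpl8, at the peptidyl transferase centre, and Rpl4, whose loop lines the exit tunnel. Rpl8 was at 176, 180.2 and 219.6 FPKM in crush and 172, 303 and 170.1 FPKM in sham (log2 change -0.12, SE 0.23). Rpl4 was at 110.4, 109 and 122 FPKM in crush and 109.7, 157 and 110.2 FPKM in sham (-0.12, SE 0.15). Without sham 2 the changes were 0.16 in Rpl8 and 0.049 in Rpl4. Outside sham 2, the values of Rpl4 lay between 109 and 122 FPKM in both groups. Rpl5 and Rpl11, which with 5S rRNA bind Mdm2 and stabilise p53 when ribosome assembly fails, had changes of opposite sign over all libraries and both positive without sham 2, at 0.24 and 0.051. Rpl5 was at 8.70, 8.46 and 10.1 FPKM in crush and 7.56, 9.96 and 7.52 FPKM in sham (0.12, adjusted p = 0.698 by limma). Rpl11 was at 7.79, 7.25 and 8.56 FPKM in crush and 7.23, 11.3 and 7.87 FPKM in sham (-0.13, adjusted p = 0.755 by limma). Over all libraries neither change exceeded its standard error. Without sham 2 that of Rpl5 did (SE 0.082, adjusted p = 0.129 by limma) and that of Rpl11 did not (SE 0.081). Of the exonic bases of Rpl5, 95.7% lie in exons of Fam69a.

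Among the members tested, the widest spread between libraries was in Rpl14. It was at 32.7, 12.3 and 74.6 FPKM in crush and 43.6, 108 and 28.3 FPKM in sham. Crush 2 lay below every sham library and sham 2 above every crush library, with the other values interleaved. Its log2 change was the lowest of those tested at -0.69 (SE 0.70, adjusted p = 0.689 by limma). It was -0.047 without crush 2 and -1.30 without crush 3, and turned to 0.28 when only isoforms with status OK were summed. An isoform that the deposited table marks LOWDATA in every library held 92.8% of its level. Rpl26, next to the exit tunnel, was at 33.7, 30.8 and 45.7 FPKM in crush and 32.1, 69.1 and 32.7 FPKM in sham (-0.20, SE 0.31). Rps14, of the small subunit, was at 51.2, 49.4 and 56.5 FPKM in crush and 49.9, 85.7 and 51.4 FPKM in sham (-0.20, SE 0.20), with status FAIL in sham 3 for all its isoforms, so its value in that library is uncertain. Without sham 2 the changes were -0.16 in Rpl14, 0.16 in Rpl26 and 0.045 in Rps14.

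In Rpl37 the division of FPKM between isoforms differed from library to library. The gene was at 6.66, 5.30 and 6.74 FPKM in crush and 3.42, 20.8 and 5.10 FPKM in sham (log2 change -0.22, SE 0.55, and 0.47 without sham 2, adjusted p = 0.109 by limma). An isoform of 3600 nt made up 1.81, 12.6 and 91.3% of it in crush 1 to 3 and 12.6, 98.6 and 36.8% in sham 1 to 3. The remainder was an isoform of 4402 nt. The shares covered almost the whole range within each group, and 66.8% of the exonic bases of the gene lie in exons of Card6 on the opposite strand. Card6 was at 4.81, 3.84 and 2.18 FPKM in crush and 4.35, 1.42 and 3.25 FPKM in sham. The part of read division among these overlapping models was not tested.

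Besides Rpl15 and Rpl5, the largest changes toward crush were those of Rpl36al, Rpl31 and Rpl38. Rpl31 was at 6.05, 6.47 and 6.92 FPKM in crush and 5.28, 7.50 and 5.14 FPKM in sham (log2 change 0.12, and 0.27 without sham 2, adjusted p = 0.0647 by limma). Rpl38, a protein known to affect the translation of Hox mRNAs, was at 2.70, 2.70 and 2.94 FPKM in crush and 2.26, 3.55 and 2.04 FPKM in sham (0.09, and 0.26 without sham 2, adjusted p = 0.082). For both genes the crush libraries lay between sham 2 and the other sham libraries. The level of Rpl38 is uncertain, as the pseudogene name Rpl38-ps2 had a mean of 245 FPKM, beside 2.70 FPKM for Rpl38. The log2 change of Rpl38-ps2 was -0.14, and 0.16 without sham 2. Together the 2 names held 219, 202 and 270 FPKM in crush and 195, 385 and 212 FPKM in sham, and the groups overlapped.

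Several members have a second gene with a like name, some of them true paralogs. Rpl22 was at 36.3, 36.0 and 39.6 FPKM in crush and 37.2, 49.6 and 37.5 FPKM in sham (log2 change -0.14), and its paralog Rpl22l1 at 9.09, 8.56 and 10.8 FPKM in crush and 10.1, 13.0 and 9.56 FPKM in sham (-0.17). Rpl7 was at 31.7, 28.4 and 35.6 FPKM in crush and 30.5, 48.5 and 31.1 FPKM in sham (-0.17). Rpl7l1, related to Rpl7, was among the steadiest members, at 10.3, 10.0 and 11.2 FPKM in crush and 10.2, 11.6 and 10.6 FPKM in sham (-0.04, SE 0.08). Rpl36al was at 3.44, 2.52 and 2.65 FPKM in crush and 2.76, 2.59 and 2.31 FPKM in sham (0.12, SE 0.11), while Rpl36a was under 1 FPKM in every library and shares every exonic base with Gla. Rps27l, a p53 target, was at 30.9, 28.2 and 35.6 FPKM in crush and 30.6, 41.7 and 31.4 FPKM in sham (-0.12, SE 0.14). Rps27l, with Rpl11 above, was named after its values were seen. Without sham 2 the changes were -0.0024 in Rpl22, -0.050 in Rpl22l1, 0.042 in Rpl7, 0.012 in Rpl7l1, 0.13 in Rpl36al and 0.021 in Rps27l. None of these paralogs separated crush and sham beyond the spread between libraries, with adjusted p by limma between 0.57 and 0.866 for those tested.

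The other pairs share only a name. Rpl13a, released on phosphorylation to silence inflammatory mRNAs in human cells, was at 47.5, 46.5 and 57.7 FPKM in crush and 46.4, 71.2 and 48.4 FPKM in sham (log2 change -0.11). Rpl13 was at 7.81, 7.71 and 8.32 FPKM in crush and 6.01, 11.9 and 6.87 FPKM in sham (0.00, and 0.27 without sham 2, adjusted p = 0.0703 by limma). Rpl23 was at 7.65, 8.22 and 10.3 FPKM in crush and 7.72, 11.0 and 7.81 FPKM in sham (-0.01), and Rpl23a at 4.34, 3.91 and 4.90 FPKM in crush and 3.94, 5.69 and 3.94 FPKM in sham (-0.03). Rpl27 was at 7.96, 7.29 and 9.95 FPKM in crush and 6.86, 10.9 and 7.10 FPKM in sham (0.03). Rpl27a was at 10.1, 10.3 and 14.6 FPKM in crush and 9.18, 24.1 and 9.95 FPKM in sham (-0.17). Rpl37a was at 3.31, 3.14 and 3.69 FPKM in crush and 2.76, 3.82 and 3.08 FPKM in sham (0.06). Rps3a was at 8.35, 8.08 and 9.58 FPKM in crush and 7.37, 11.8 and 7.79 FPKM in sham (-0.02). Rps15a was at 2.30, 2.50 and 3.24 FPKM in crush and 3.01, 2.47 and 3.03 FPKM in sham (-0.06), and 90.3% of its exonic bases lie in exons of Arl6ip1, at 156 to 165 FPKM in crush and 163 to 167 FPKM in sham. Sham 2 was the highest library for each of these genes except Rps15a. Without it the change was -0.13 in Rps15a and positive in the others, between 0.087 in Rpl13a and 0.27 in Rpl13.

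The lowest members tested sat near 1 or 2 FPKM in the isoforms that had values. The leading isoform was 3886 nt in Rpl21, 2393 nt in Rps13, 2163 nt in Rpl24 and 599 nt in Rps29. Rps29 was at 0.963, 1.18 and 1.12 FPKM in crush and 1.22, 2.03 and 0.915 FPKM in sham (log2 change -0.17, SE 0.17). Rpl24, which bridges the subunits, was at 1.12, 1.62 and 1.38 FPKM in crush and 1.48, 1.65 and 0.975 FPKM in sham (0.01, SE 0.14). Rpl21 was at 2.03, 1.93 and 1.58 FPKM in crush and 1.19, 2.91 and 1.89 FPKM in sham (-0.04, SE 0.20). Rps13 was at 2.02, 2.25 and 2.67 FPKM in crush and 2.06, 2.65 and 2.09 FPKM in sham (0.02, SE 0.11). The groups overlapped in all 4, and without sham 2 the changes were 0.016, 0.095, 0.18 and 0.10 in that order.

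The excess in sham 2 varied with transcript length. The FPKM-weighted length of the members had a median of 983 nt, against 2963 nt over all genes tested, and 31 members were under 1000 nt, as were 7.91% of all genes. Among genes that are not members, the median of sham 2 minus the mean of the other sham libraries was 0.41 on the log2 scale under 500 nt, 0.45 between 500 and 1000 nt, 0.31 up to 1500 nt, 0.13 up to 2500 nt, -0.03 up to 4000 nt and -0.20 above. The members gave 0.76, 0.64, 0.61, 0.41, 0.55 and 0.02 in the same classes. With the trend on length taken out of every library by a smooth curve (lowess, span 0.3), the members' median difference in sham 2 was 0.27, with 54 of 61 above 0. That difference was above 0 in 50.5% of all genes. The crush minus sham change then had a median of -0.01, with 30 of 61 members positive (50.3% of all genes) and 0 passing, where 7.92% of all genes passed (4.69% higher and 3.23% lower). The part of transcript length in these differences was not tested.

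**Figure D4:**
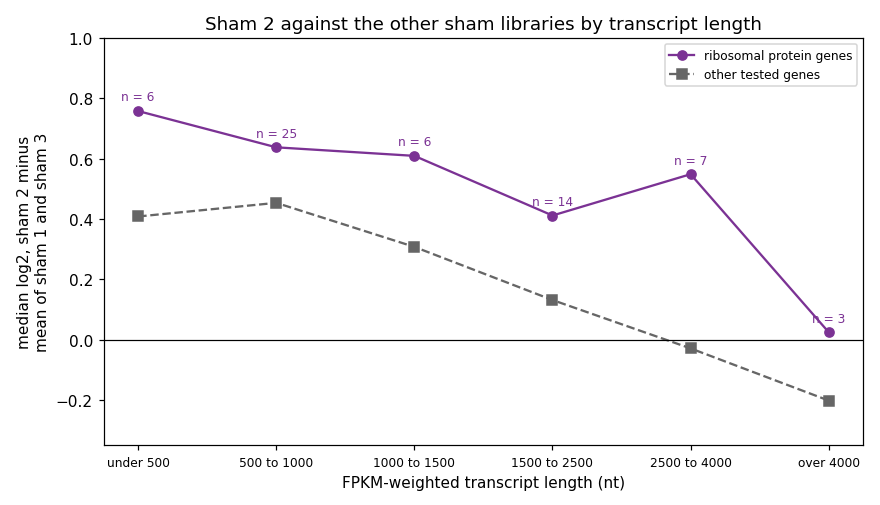
Median log2 difference of sham 2 from the mean of sham 1 and sham 3 in 6 classes of FPKM-weighted transcript length (nt), for ribosomal protein genes (circles, with their number) and for the other genes tested (squares). The members lie above the other genes in every class, and the class above 4000 nt holds only 3 members.

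Many members have processed copies in the genome, and the table lists 18 names of ribosomal protein pseudogenes that the rule left out. Each was a transcript of 1 exon. For 16 of them the table also holds the member of the same stem, 15 members in all, and in 11 of the 16 the pseudogene name had the higher FPKM. Rpl28-ps1 had a mean of 249 FPKM beside 4.53 FPKM for Rpl28, and Rpl38-ps2 had 245 FPKM beside 2.70 FPKM for Rpl38. Rpl9-ps7 had 94.0 FPKM beside 0.282 FPKM for Rpl9, and Rpl10a-ps1 had 185 FPKM beside 4.87 FPKM for Rpl10a. The 18 names summed to 2210.2, 2181 and 2595 FPKM in crush and 2101, 3507 and 2135 FPKM in sham. Reads from a spliced mRNA and from its processed copy cannot be told apart where their sequences match, so a low value of a member in such a pair is uncertain. Sham 2 was the highest library in 17 of the 18 pseudogene names, against 35.1% of all genes tested. All 3 crush libraries lay above sham 1 and sham 3 in 9 of the 18, against 20.9% of all genes tested. Of the 17 tested, 0 passed, where 3.78% of all genes passed. The change was positive in 1 over all libraries (54.1% of all genes were negative) and in 16 without sham 2 (46.5% of all genes).

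Members were also summed with their copies. Rpl10a with Rpl10a-ps1 held 171, 168 and 192 FPKM in crush and 165, 274 and 168 FPKM in sham. Rpl3, which binds near the peptidyl transferase centre, with Rpl3-ps1 held 297, 299.5 and 318 FPKM in crush and 319, 455 and 312 FPKM in sham. Rps24 with Rps24-ps3 held 248, 228 and 285 FPKM in crush and 225, 352 and 219 FPKM in sham. In these sums, too, sham 2 was the highest library and crush 3 the highest crush library.

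**Figure D5:**
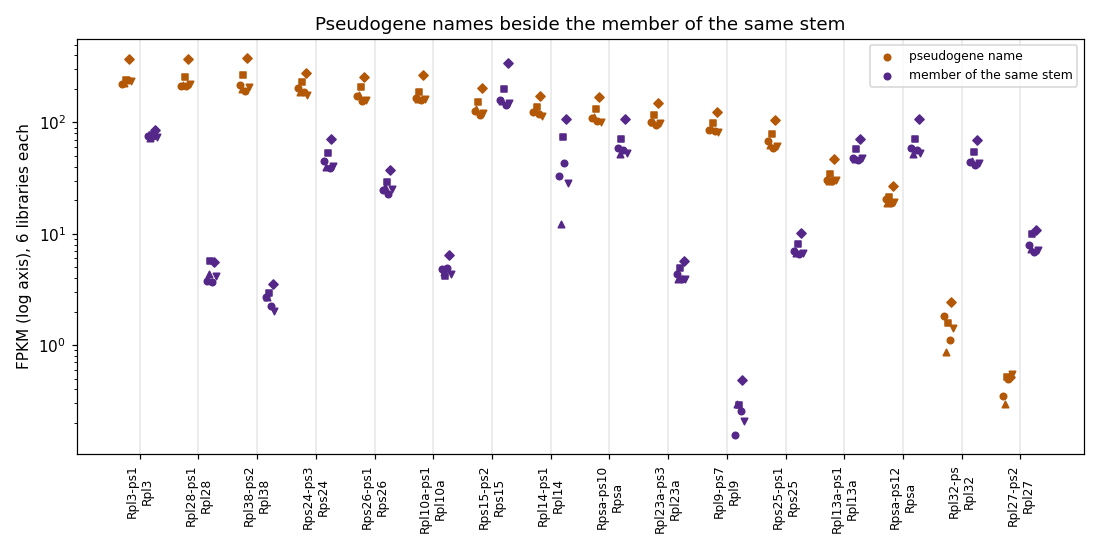
FPKM in each of the 6 libraries (log axis) of 16 ribosomal protein pseudogene names (left of each pair) and of the member of the same stem (right; marker shapes stand for the libraries as in the plot of all members). The pseudogene name is the higher one in 11 of the 16 pairs.

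Exons shared with another gene touched 24 members, and 16 of them shared at least 50% of their exonic bases with 1 other gene. Beside those named above, Rpl9 lies wholly within exons of Lias and Rpl22l1 shares 99.9% of its exonic bases with a transcript on the opposite strand. Rpl7 shares 99.5% with Rdh10, Rpl27a 97.1% with Trim66, Rpl32 93.2% with Cand2 and Rps18 86.2% with Vps52. The means were 5.54 FPKM for Lias beside 0.282 for Rpl9, and 0.192 for the opposite transcript beside 10.2 for Rpl22l1. They were 1.53 for Rdh10 beside 34.3 for Rpl7, and 0.380 for Trim66 beside 13.0 for Rpl27a. Cand2 was at 1.55 beside 49.9 for Rpl32, and Vps52 at 19.0 beside 32.2 for Rps18. The values of such members can depend on how the authors' software divided the reads, and the size of that part was not tested.

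At the level of isoforms, limma passed 0 of the 146 member isoforms that reached 1 FPKM on average, where 0.0613% of 24485 isoforms passed. The authors' deposited table, which compares a pooled estimate of each group, calls 15 of the 174 member isoforms it tested, in 12 genes, where it calls 15.1% of all isoforms tested. Of those 15 calls of the authors' deposited table, 13 were higher in crush and 2 lower (8.26% and 6.84% of all isoforms), and 5 were at 0 in a pooled group. The calls included the leading isoform of Rpl15, with pooled values of 16.7 FPKM in crush and 12.0 FPKM in sham in the authors' deposited table (log2 0.48, q = 0.000124). Several calls stood against the order of the libraries. For the leading isoform of Rps9 the authors' deposited table gives 126 FPKM in crush and 100.2 FPKM in sham (log2 0.33, q = 0.00652). In the single libraries of the authors' deposited table this isoform was at 77.6, 76.3 and 103 FPKM in crush and 73.0, 163 and 74.2 FPKM in sham, so the pooled crush value lies above all 3 crush libraries. The same held for 6 of the 15 calls, and for 34.9% of the member isoforms with at least 1 FPKM, against 34.1% of all isoforms. For 9 of the 15 called isoforms, sham 2 was the highest library.

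Other genes of translation were read from lists, in the same fit. Calls made only without sham 2 are named as such. Of all genes, 2.38% were called higher and 1.39% lower over all libraries. Without sham 2 these shares were 4.94% and 4.61%. Of the ribosome biogenesis genes 0 of 74 tested passed (median log2 change 0.02), and the smallest adjusted p was that of Utp18, a factor of small subunit assembly, at 7.03 ± 0.0947 FPKM in crush and 5.98 ± 0.364 FPKM in sham (SD, n = 3 each, log2 change 0.20, adjusted p = 0.185 by limma). The median without sham 2 was 0.048, and Sbds, a late factor of large subunit assembly, was called higher. Initiation factors gave 0 of 41 (median -0.04), with Eif4a1, the helicase of the cap complex, at 6.45 ± 0.656 FPKM in crush and 5.13 ± 0.673 FPKM in sham (0.28, adjusted p = 0.233 by limma). The list's median was 0.018 without sham 2, and 2 of the 41, Eif4a1 and Eif3b, were called higher, near the share of all genes (4.94%). Elongation and termination factors gave 0 of 16 (median 0.08), with Gtpbp2 at 21.0 ± 0.260 FPKM in crush and 18.1 ± 0.748 FPKM in sham (0.20, adjusted p = 0.148 by limma). With sham 2 left out the median was 0.070, and Eif5a2 was called lower. Gtpbp2, which rescues stalled ribosomes, is on the quality control list as well. That list gave 0 of 18, and Ifrd1, a stress-induced regulator, had the smallest adjusted p there, at 13.5 ± 1.17 FPKM in crush and 9.80 ± 0.993 FPKM in sham (0.42, adjusted p = 0.0704 by limma). The quality control list had a median of 0.019 without sham 2, and Ifrd1 was called higher.

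Regulators of the pyrimidine tract and mTOR gave 1 of 28 higher and 0 lower, where 2.38% of all genes were called higher and 1.39% lower. The list's median was -0.01, and 0.015 without sham 2. Rps6ka1, a kinase of ribosomal protein S6 downstream of ERK, rose: it was at 9.93 ± 1.23 FPKM in crush and 6.76 ± 0.436 FPKM in sham (SD, n = 3 each, log2 change 0.49, adjusted p = 0.0486 by limma). The call held without sham 2 (adjusted p = 0.0314) and was lost without any 1 of the other libraries (adjusted p = 0.0781 to 0.186). Other mRNAs known to carry such a tract gave 0 of 23 (median 0.0058, and 0.14 without sham 2), and sham 2 exceeded the other sham libraries there by a median of 0.35 on the log2 scale. Mitochondrial ribosomal proteins gave 0 of 75 (median -0.14, negative in 66, and a median of -0.019 without sham 2), with a sham 2 excess of 0.40, and the lowest adjusted p was that of Mrpl41 (9.52 ± 4.19 FPKM in crush and 17.8 ± 4.34 FPKM in sham, log2 change -0.88, adjusted p = 0.171 by limma). A short list of other proteins tied to the ribosome (among them Gnb2l1, now called Rack1, and Rpl41) gave 0 of 4 with and without sham 2. The scaffold protein Gnb2l1 was at 58.5, 58.2 and 69.3 FPKM in crush and 54.9, 79.2 and 55.5 FPKM in sham. Outside translation, the same fit called 12 of 13 axon injury genes higher. It called 11 of 13 macrophage markers higher and 2 of 14 neuronal markers, Nefh and Nefm, lower. The call of Nefm was lost without any 1 library other than sham 2 (adjusted p = 0.141 to 0.177), and that of Nefh without crush 1, crush 2, sham 1 or sham 3 (0.0633 to 0.101). It called 0 of 15 glial markers and 0 of 13 fibroblast and vascular markers. Without sham 2 it called 2 of each higher, where 4.94% of all genes were called higher. The part of these other cells in the levels of the ribosomal protein genes was not tested.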

How the data were processed

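RNA-seq libraries of 3 crush and 3 sham samples were used, from poly-A RNA (500 ng for each, run on 3 lanes), per the labels' protocols. The authors deposited FPKM per isoform and library, with an interval and a status. The submitters' processing notes name build mm9, Cuffdiff 1.2.1, Cufflinks 1.1.0 and TopHat 1.3.2. In the same deposited table the authors compare pooled groups, as log2 fold, p-value and q-value per isoform. Depth is unknown, so no counting interval is given. The deposited interval had a median width to either side of 25.8 to 27.8% over 50 member isoforms of at least 10 FPKM.

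FPKM was summed over isoforms of a name, genes with a mean of at least 1 FPKM were kept, and log2(FPKM + 1) was tested with limma 3.58.1 in R 4.3.3 (mean-variance trend, 2-sided, Benjamini-Hochberg over all genes, threshold 0.05). A pseudocount of 1 understates changes of low genes. An exact permutation of 3 against 3 cannot go below p = 0.1, so none was run. The procedure was tested on simulated data. Lengths and exon overlaps come from the authors' exon file. Promoter sequence comes from RefSeq (GRCm38.p6) and was matched by symbol, without converting coordinates.

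The members and lists were chosen with earlier results of these data known. Genes named are those among the 10 of highest mean, the 5 of largest and the 5 of smallest change, the 5 lowest tested, pairs of like names, stalk proteins and Rpsa, with Rpl11 and Rps27l added, and from each list the gene or genes of smallest adjusted p. Other members are named only for a pseudogene name, shared exons, a status that was not OK or a level too low to test. Sbds, Eif3b and Eif5a2 are named for calls made only without sham 2. Same-numbered crush and sham libraries deviated with correlations of 0.37, -0.31 and -0.49 across genes. With 3 libraries a group such values cannot decide whether the numbers pair them, and the labels do not say. Rps6 and other members of the ribosome that the table does not list by name are not analysed here. The 149 member transcripts of the exon file without values were not used. Alternatives were another pseudocount, filter, scaling, isoform choice, variance model, library weights, a replicate block and each library left out. Values of 2 members and 1 gene of the lists are not reported here, though they enter the counts, medians and sums.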

Additional observations from a re-analysis of the deposited data

How the results depend on the processing

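Counts of calls changed with the libraries and how they were weighted. Leaving out 1 library at a time gave 53 to 1174 genes past the threshold (464 with all 6), 0 to 1 ribosomal protein genes and 0 to 6 genes of the translation lists (1 with all 6), the highest of each without sham 2. The members' median log2 change ran between -0.20 (without sham 1) and 0.14 (without sham 2). Array weights, which gave sham 2 the lowest weight (0.162), called 1429 genes, 1 member (Rpl15), 9 list genes and a median of 0.06. Leaving out both sham 2 and crush 3, chosen after seeing the data, called 1610 genes and 2 members (Rpl15 and Rpl41), with a median of 0.06. With the length trend removed, also chosen after seeing the data, 973 genes passed and the median was -0.01.

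Under the replicate block 50 genes passed, with 0 members and 0 list genes. Whether the numbers pair the libraries is not known. A mean of at least 5 FPKM gave 295 genes, and reference isoforms only gave 67, fewer genes being tested under each. Upper-quartile scaling called 2 list genes. The single list call, Rps6ka1, was lost (0 list genes) with a pseudocount of 5, without the filter, with a mean of at least 5 FPKM, with reference isoforms only, without the mean-variance trend and with robust moderation. For Rps6ka1 and the others, the cause was not tested.

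Of 40 named members, leaving out 1 library turned the sign in 32, with these ranges of log2 change: Rpl11 -0.24 to 0.051, Rps27l -0.21 to 0.021, Rpl13 -0.17 to 0.27, Rpl13a -0.22 to 0.087, Rpl21 -0.24 to 0.18, Rpl23 -0.13 to 0.14, Rpl23a -0.099 to 0.12, Rpl24 -0.12 to 0.095, Rpl26 -0.38 to 0.16, Rpl27 -0.082 to 0.23, Rpl27a -0.41 to 0.24, Rpl37 -0.68 to 0.47, Rpl37a -0.018 to 0.16, Rpl38 -0.028 to 0.26, Rpl4 -0.21 to 0.049, Rpl41 -0.085 to 0.33, Rpl7 -0.28 to 0.042, Rpl7l1 -0.078 to 0.012, Rpl8 -0.26 to 0.16, Rplp0 -0.20 to 0.14, Rplp1 -0.31 to 0.21, Rplp2 -0.17 to 0.19, Rps13 -0.055 to 0.10, Rps14 -0.34 to 0.045, Rps15 -0.41 to 0.21, Rps15a -0.17 to 0.010, Rps21 -0.37 to 0.0026, Rps29 -0.31 to 0.016, Rps3 -0.075 to 0.23, Rps3a -0.13 to 0.17, Rps9 -0.32 to 0.17 and Rpsa -0.36 to 0.14. Array weights turned Rpl11 to 0.0083, Rpl13a to 0.0043, Rpl21 to 0.24, Rpl23 to 0.039, Rpl23a to 0.062, Rpl26 to 0.0074, Rpl27a to 0.087, Rpl37 to 0.40, Rpl8 to 0.044, Rplp0 to 0.066, Rplp1 to 0.078, Rplp2 to 0.15, Rps15 to 0.078, Rps3a to 0.11, Rps9 to 0.052 and Rpsa to 0.013. Upper-quartile scaling turned Rpl23 (0.028), Rpl23a (0.0098), Rpl7l1 (0.0046), Rplp2 (0.030) and Rps3a (0.019), quantile normalization turned Rpl24 (-0.027) and Rps13 (-0.015), and a pseudocount of 5 turned Rpl13 (-0.0075). Reference isoforms only turned Rpl4 (0.033) and Rps15 (0.089), and status OK isoforms only turned Rpl14 (0.28). With 3 libraries a group, no counts and a median standard error of 0.17, changes of the size seen in most members could not be resolved. Without sham 2 that median was 0.094.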
